A study of Mus musculus with 12 samples.

Results

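The immune cells of the kidney were read from 39 marker genes in whole-kidney RNA of mice that received SK-124, a selective SIK2/SIK3 inhibitor, or its vehicle. Members were taken by symbol from a fixed list of 6 B cell and plasma cell genes, 10 T and NK cell genes, the pan-leukocyte gene *Ptprc*, 11 monocyte and macrophage genes, 4 dendritic cell genes, 4 MHC class II genes and 3 neutrophil genes, and all 39 were found among the 55401 gene identifiers of the tables. The study asked which parts of the renal response to parathyroid hormone run through salt-inducible kinases, and this experiment gave the inhibitor alone. Male C57BL6 mice, 8 weeks old, received 1 intraperitoneal injection of SK-124 at 40 mg/kg (6 mice) or of 15% 2-hydroxypropyl-beta-cyclodextrin, the vehicle (6 mice), and 1 library was made per mouse. The labels and the study's text used here give no time of collection for these kidneys. Neither the mice nor the tissue were selected for immune cells, and nothing in the labels names a batch.

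Most cells of a kidney are tubular epithelium, and leukocytes are a minority that lies between the tubules and in the vessels. Resident macrophages and dendritic cells are the main immune cells of the healthy kidney. They display peptides to T cells on MHC class II proteins and make the C1q chains that start the classical complement cascade. B cells, T cells, NK cells and neutrophils are few in healthy tissue, and many of them circulate in the blood that remains in the vessels. In RNA from whole tissue, fewer cells of a type and less RNA per cell cannot be told apart. From single-cell RNA-Seq of kidneys, the study reported that acute SK-124 left the overall size of cell clusters unchanged. Those single-cell data were not used here.

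Between 19244227 and 19771802 estimated reads per mouse were assigned to genes. Levels are given as CPM, counts scaled to library size after TMM scaling of the library totals, and as CPM per kilobase of effective gene length where genes are compared with each other. The 10 genes with the most counts took 39.9% to 43.2% of the counts with vehicle. With SK-124 this share was 44.4% to 46.8% in mice 1 to 3, above the whole vehicle range, and 38.6% to 40.2% in mice 4 to 6. Fold changes compare SK-124 with vehicle in edgeR's quasi-likelihood test, and FDR is its Benjamini-Hochberg adjusted p over the 14159 genes that passed edgeR's filter on low counts. Markers of the kidney itself were abundant in every mouse: *Slc34a1*, *Lrp2*, *Umod*, *Slc12a3*, *Aqp2* and *Nphs1* together gave 7979 to 9307 CPM with vehicle and 8419 to 9892 CPM with SK-124. Of these 6 genes, *Aqp2*, the water channel of collecting duct principal cells, was called higher (85.1, 102 and 143 CPM in the lowest, median and highest vehicle-treated mouse, 119, 166 and 239 CPM with SK-124; 0.75, SE 0.14, FDR = 0.000852), and its part in the immune results was not tested.

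In SK-124-treated kidneys the B cell markers *Igkc*, *Ighm* and *Cd79a* were lower and the neutrophil markers *S100a8* and *S100a9* were higher. Monocyte and macrophage markers went both ways, and the tested MHC class II, T cell and dendritic cell markers did not pass the test. Of the 39 markers, 25 passed the filter on low counts and 9 of these were called at an FDR under 0.05, or 36.0% of the markers tested, where 24.4% of all genes tested were called. The 4 higher markers were *S100a8*, *S100a9*, *Cd14* and *Itgam*, beside 10.8% of all genes higher. The 5 lower markers were *Igkc*, *Ighm*, *Cd79a*, *Cx3cr1* and *Cd68*, beside 13.5% of all genes lower. The median log2 fold change of the 25 tested markers was -0.15, and that of all genes was -0.01. Scaled by library totals instead of TMM, the median of all genes moved to -0.12 and 20.3% rather than 44.5% of all calls were higher, with 3 markers higher and 8 lower. Against all vehicle-treated mice, SK-124-treated mice 1 to 3 alone gave 3 higher and 6 lower of 26 markers tested, with 2298 of 14512 genes called. Mice 4 to 6 alone gave 3 higher and 3 lower of 27 markers, with 2446 of 14621 genes called.

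In 7 of the 25 tested markers no SK-124-treated mouse overlapped a vehicle-treated mouse, beside 13.0% of all genes tested. These were *S100a8*, *S100a9* and *Cd14*, higher (6.32% of all genes), and *Igkc*, *Ighm*, *Cd79a* and *Cx3cr1*, lower (6.65% of all genes). The filter let 4 markers through on the vehicle-treated mice alone and 3 on the SK-124-treated mice alone, since it asks for about 0.512 CPM in as many mice as a group holds. *Igkc*, *Cd79a*, *Cx3cr1* and *Itgax* were the former and *S100a8*, *S100a9* and *Csf3r* the latter, so the counts of called markers describe the list and are not evidence beyond each gene's own test. The other 14 markers had 10 to 120 counts in all 12 mice together.

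**Figure D1:**
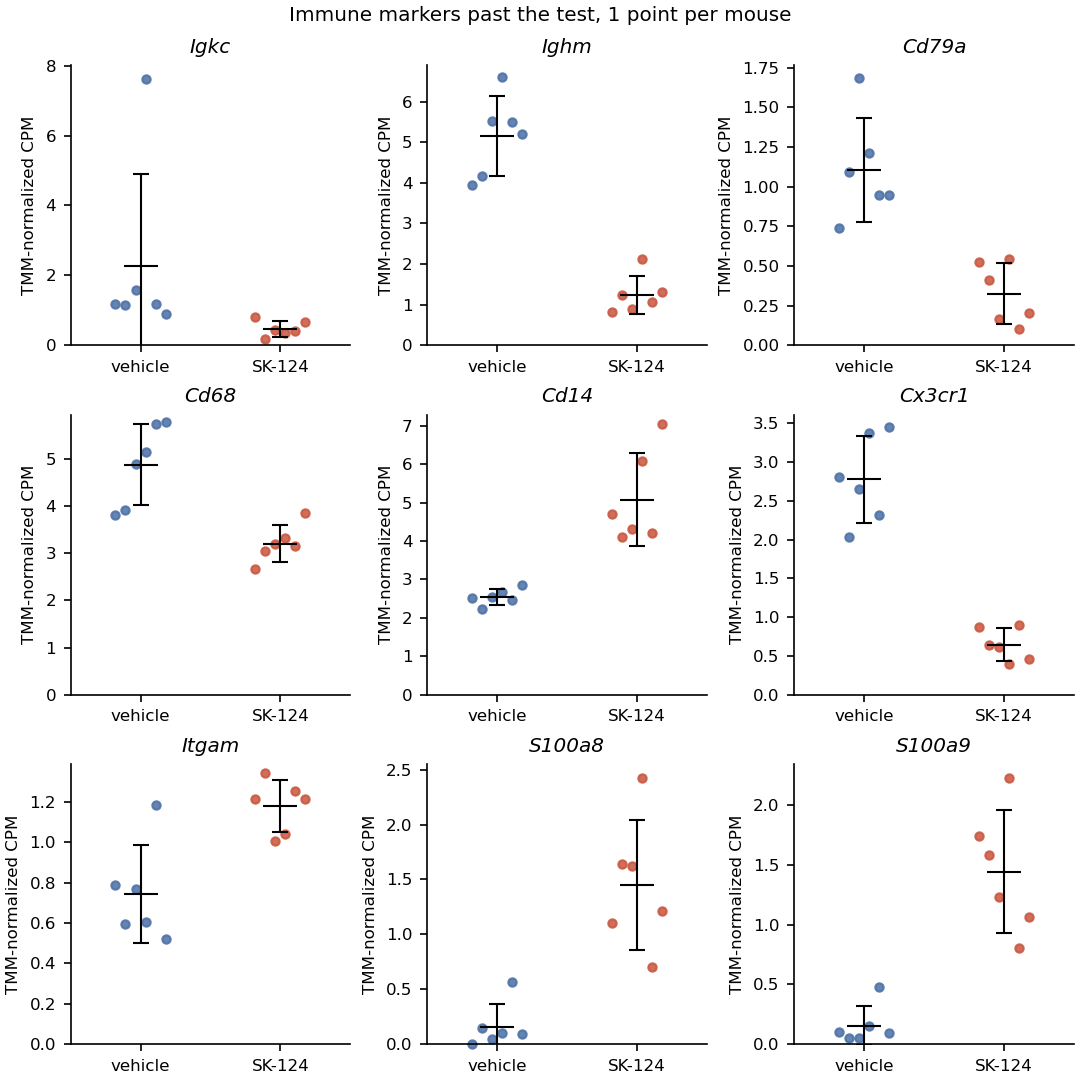
TMM-normalized CPM (y axis, from 0) of the 9 immune markers with an FDR under 0.05, in 6 vehicle-treated (blue) and 6 SK-124-treated (red) mice. Each point is 1 mouse, and black lines are the mean and the SD; the groups overlap for *Cd68* and *Itgam* and are apart for the other 7 markers, and vehicle-treated mouse 4 stands alone at 7.61 CPM for *Igkc*.

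A B cell carries an antibody on its surface, made of heavy chains such as IgM and of light chains such as kappa, with the CD79A and CD79B chains that pass its signal on. *Ighm* (chromosome 12, 113418558 to 113422730, minus strand; GRCm38, GENCODE M21), the constant region of the IgM heavy chain, was at 3.95, 5.36 and 6.6 CPM (lowest, median and highest mouse) with vehicle and at 0.811, 1.14 and 2.13 CPM with SK-124. All 6 SK-124-treated mice lay under all 6 vehicle-treated mice, and the highest of them was mouse 4. The level fell by a log2 fold change of -2.04 (SE 0.20, FDR = 7.14e-07 in edgeR's quasi-likelihood test), which left 24.0% of the vehicle level, and the two-sided exact permutation test gave p = 0.00216, the smallest that 6 mice against 6 allow.

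*Cd79a* (chromosome 7, 24897381 to 24902197, plus strand), which encodes a signalling chain of the B cell receptor, was at 0.741, 1.02 and 1.69 CPM with vehicle and at 0.10, 0.306 and 0.545 CPM with SK-124. Again no mice overlapped, although the difference rested on 134 counts against 36 (-1.75 on the log2 scale, SE 0.32, FDR = 0.000627 in edgeR's test; exact permutation p = 0.00216).

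*Igkc* (chromosome 6, 70726435 to 70726966, plus strand), the constant region of the kappa light chain, was at 0.900, 1.19 and 7.61 CPM with vehicle and at 0.175, 0.424 and 0.811 CPM with SK-124. Vehicle-treated mouse 4 held the 7.61 CPM and the other 5 vehicle-treated mice held at most 1.58 CPM, yet every SK-124-treated mouse was still the lower in each such pair. The estimate on the log2 scale was -2.24 (SE 0.58, FDR = 0.00866 in edgeR's test; exact permutation p = 0.00216) and without vehicle-treated mouse 4 it was -1.33 (FDR = 0.0026). Against all 6 vehicle-treated mice, SK-124-treated mice 1 to 3 alone gave -2.22 (FDR = 0.0915) and mice 4 to 6 alone -2.25 (FDR = 0.0704). In the annotation *Igkc* overlaps *Gm30211* on the same strand, but RSEM shared none of its reads with another gene in any mouse.

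The other 3 B cell markers fell under the filter. *Cd79b*, the partner chain of CD79A, had 57 counts in vehicle-treated and 17 in SK-124-treated mice, and in a fit of all 25286 genes with counts it was lower by a log2 fold change of -1.59 (FDR = 0.0137). That fit called 7.4% of all genes lower and 5.81% higher. *Ms4a1*, which encodes the B cell surface protein CD20, had 27 counts against 6 (-1.91, FDR = 0.0883), and *Jchain*, which links antibody units in plasma cells, had 37 against 22 (-0.61, FDR = 0.388). Neither was called.

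Of 19 further B cell genes, 9 were lower and 1 was higher in the fit without a filter, beside 7.4% of all genes lower and 5.81% higher. Among the 9 lower, *Ighg2c* had 88 of its 89 vehicle counts in vehicle-treated mouse 4 and so rested on that mouse. *Pax5*, the transcription factor that holds B cell identity, had 51 counts with vehicle and 7 with SK-124, with no overlap between the mice (-2.62, FDR = 0.000764). *Blk*, a kinase next to the B cell receptor, had 19 counts against 1 (FDR = 0.0049, with too few counts under SK-124 for a fold). The exception was *Mzb1*, which encodes an endoplasmic reticulum protein that helps antibody assembly in plasma cells. It was at 0.197, 0.375 and 0.613 CPM with vehicle and at 0.637, 0.967 and 1.42 CPM with SK-124, higher in every SK-124-treated mouse (1.39, SE 0.28, FDR = 0.00145 in edgeR's test). Only 3 of the 19 passed the filter, and *Blnk*, an adaptor below the B cell receptor with 12.7 to 14.2 CPM in vehicle-treated mice, was the 1 called lower among them (-0.30, FDR = 0.0208).

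Antibody and T cell receptor segments were then summed by their annotated class, a grouping chosen after the values were seen. The 13 antibody constant genes together gave 133 to 423 estimated counts per vehicle-treated mouse and 29 to 64 per SK-124-treated mouse, and the groups did not overlap. Most of these counts came from *Ighm* (629 with vehicle, 141 with SK-124) and *Igkc* (273 and 53), so the sum is not separate from those 2 markers. The 8 T cell receptor constant genes gave 39 to 60 counts with vehicle and 28 to 53 with SK-124, and the groups overlapped. Vehicle-treated mouse 4 alone held 88 of the 90 counts of *Ighg2c* and 18.8 estimated counts of the variable segment *Igkv10-94*, which no other mouse held. These are the IgG2c heavy chain constant region and 1 kappa light chain segment. Not every antibody gene was lower: *Igha*, the IgA heavy chain constant region, had 48 counts with vehicle and 44 with SK-124. It was not called in the fit without a filter (-0.0007, FDR = 0.999) and was named after its value was seen.

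T and NK cell genes were scarce in both groups. Of the 10 markers, only *Trac*, the constant region of the T cell receptor alpha chain, and *Cd4*, the coreceptor of helper T cells, passed the filter. *Trac* was at 1.19, 1.60 and 1.85 CPM with vehicle and at 0.601, 1.09 and 1.62 CPM with SK-124, so the groups overlapped (-0.41, SE 0.21, FDR = 0.17 in edgeR's test). *Cd4* was at 0.444, 0.832 and 0.900 CPM against 0.409, 0.528 and 0.862 CPM (-0.40, SE 0.24, FDR = 0.248).

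The CD3 chains, which carry the signal of every T cell receptor, were near the floor of detection. *Cd3e* had 13 counts in the 6 vehicle-treated and 11 in the 6 SK-124-treated mice, *Cd3d* had 13 and 8, and *Cd3g* had 29 and 15. The cytotoxic coreceptor genes *Cd8a* and *Cd8b1* had 75 and 18 counts with vehicle and 45 and 11 with SK-124. *Nkg7*, a cytotoxic granule gene, had 20 and 11 counts, *Klrb1c*, which encodes the NK receptor NK1.1, had 5 and 5, and *Il7r*, the interleukin-7 receptor of naive T cells, had 18 and 30. None of these 8 was called in the fit without a filter, and counts this low cannot show a small difference. Of 25 further T and NK cell genes, 3 passed the filter and none was called. Without a filter 1 of the 25 was called, lower, beside 7.4% of all genes lower and 5.81% higher. It was *Gzma*, a granzyme of cytotoxic cells (16 counts against 2, FDR = 0.048).

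*Ptprc* encodes CD45, a phosphatase on the surface of every leukocyte. It was at 3.17, 3.94 and 4.55 CPM with vehicle and at 2.66, 3.005 and 4.09 CPM with SK-124. The groups overlapped and the test was not passed (-0.29, SE 0.13, FDR = 0.104). Of 17 further genes shared by leukocytes, 16 were tested, none was higher and 2 were lower, where 13.5% of all genes tested were lower. *Spi1*, which encodes PU.1, a transcription factor of myeloid and B cells, was at 2.57 to 3.55 CPM against 1.56 to 2.34 CPM with no overlap (-0.58, FDR = 0.00315), and *Cd37*, a membrane protein abundant on B cells, was at 0.987 to 1.61 CPM against 0.448 to 1.04 CPM (-0.66, FDR = 0.0174). In the fit without a filter 3 of the 17 were lower and none higher, beside 7.4% of all genes lower. The gene added there was *Cd48* (87 counts with vehicle, 26 with SK-124, FDR = 0.0117).

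**Figure D2:**
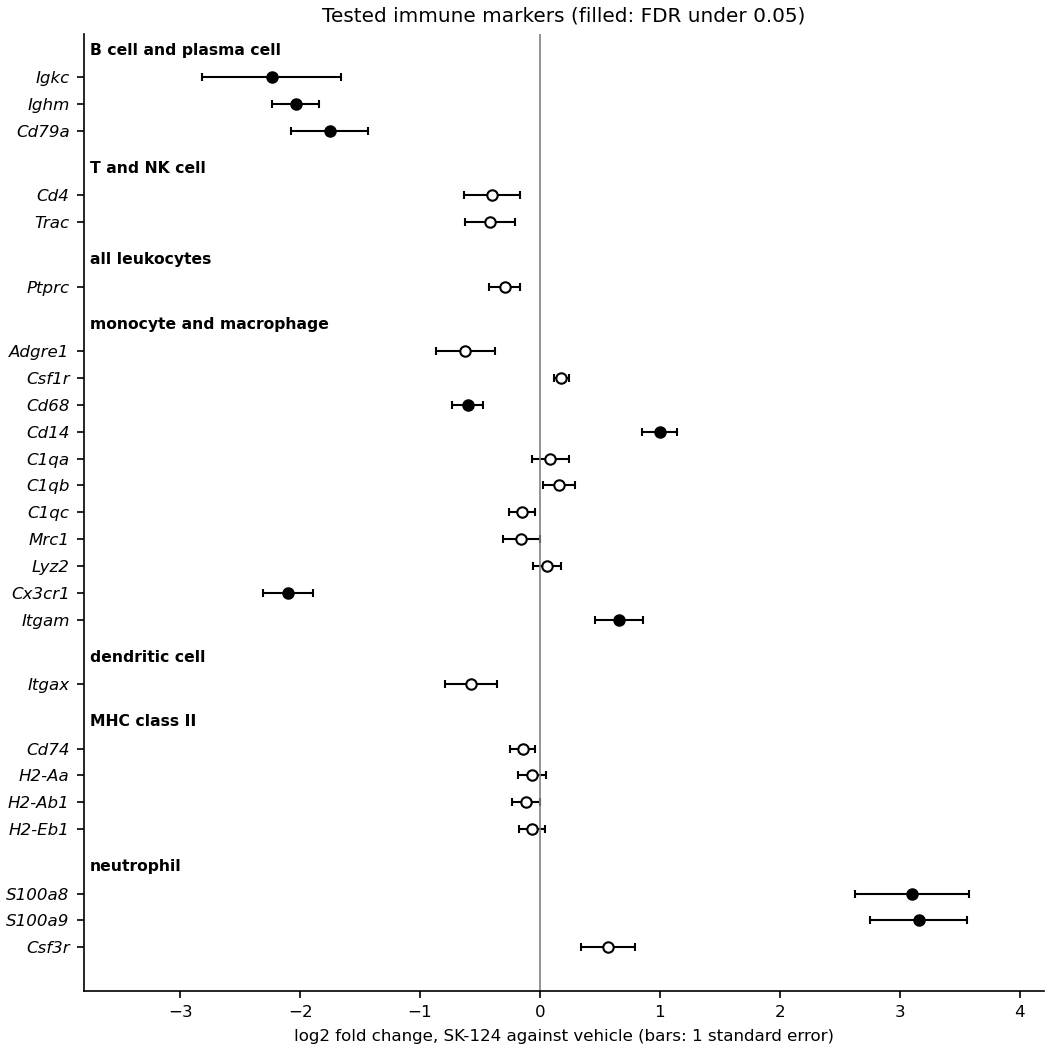
log2 fold change of SK-124 against vehicle (x axis; 6 mice in each group) for the 25 tested markers, ordered by cell group. Points are estimates from edgeR, bars are 1 standard error, and filled points have an FDR under 0.05; the 3 B cell markers lie between -2.24 and -1.75, *S100a8* and *S100a9* lie at 3.10 and 3.16, and the 4 MHC class II genes lie between -0.15 and -0.07.

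All 11 monocyte and macrophage markers passed the filter, and they did not move together. Of these, 2 rose, 2 fell and 7 were not called, beside 10.8% of all genes higher and 13.5% lower. *Cx3cr1*, the receptor for the chemokine fractalkine that patrolling monocytes and resident macrophages and dendritic cells carry, had the largest fold change of the 11. It was at 2.03, 2.74 and 3.46 CPM with vehicle and at 0.396, 0.630 and 0.902 CPM with SK-124. The highest SK-124-treated mouse was under 1 CPM and the lowest vehicle-treated mouse over 2 CPM. The fit gave -2.10 on the log2 scale (SE 0.21, FDR = 9.37e-07 in edgeR's test; exact permutation p = 0.00216), or 23.3% of the vehicle level. The annotated *Cx3cr1* gene (chromosome 9, 119901616 to 120069879, minus strand) overlaps several other genes, among them *Csrnp1* and *Wdr48*. RSEM shared none of its reads with them.

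*Cd68*, a lysosomal protein of macrophages (chromosome 11, 69664213 to 69666153, minus strand), was at 3.80, 5.02 and 5.78 CPM with vehicle and at 2.66, 3.17 and 3.85 CPM with SK-124. Only the highest SK-124-treated mouse, mouse 6, reached into the vehicle range. The log2 fold change was -0.60 (SE 0.13, FDR = 0.00213 in edgeR's test; exact permutation p = 0.00433), and with SK-124-treated mice 4 to 6 alone it was -0.50 (FDR = 0.0527).

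*Cd14*, the coreceptor with which monocytes and macrophages sense bacterial lipopolysaccharide, moved the other way. It was at 2.23, 2.54 and 2.84 CPM with vehicle and at 4.09, 4.5 and 7.04 CPM with SK-124. Vehicle-treated mice lay close together and every SK-124-treated mouse was above them, mice 4 and 6 farthest. SK-124 raised the level by 1.0 on the log2 scale (SE 0.14, FDR = 6.16e-05 in edgeR's test; exact permutation p = 0.00216).

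*Itgam*, the CD11b integrin chain of monocytes, macrophages and neutrophils, was at 0.521, 0.686 and 1.19 CPM with vehicle and at 1.01, 1.22 and 1.34 CPM with SK-124. Vehicle-treated mouse 5, which was also the highest vehicle-treated mouse for both neutrophil S100 genes, lay within the SK-124 range. The log2 fold change was 0.66 (SE 0.20, FDR = 0.0244 in edgeR's test; exact permutation p = 0.00649), the weakest of the 9 calls, and the FDR was 0.115 with SK-124-treated mice 1 to 3 alone and 0.114 with mice 4 to 6 alone.

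The 7 markers without a call included those that define tissue macrophages. *Adgre1*, which encodes the F4/80 antigen, was at 0.942, 1.88 and 2.47 CPM with vehicle and at 0.752, 1.21 and 1.72 CPM with SK-124 (-0.62, SE 0.25, FDR = 0.0778). *Csf1r*, the receptor for the growth factor CSF1 on which macrophages depend, was at 34.2, 36.5 and 41.7 CPM against 37.6, 41.6 and 47.4 CPM (0.18, SE 0.07, FDR = 0.0578). The C1q chain genes *C1qa*, *C1qb* and *C1qc*, the lysozyme gene *Lyz2* and the mannose receptor gene *Mrc1* had log2 fold changes between -0.15 and 0.16, with FDR between 0.364 and 0.766.

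The C1q genes lie side by side on chromosome 4, 2851 and 3616 bases apart. In SK-124-treated mice 1 and 2 *C1qa* was at 6.20 and 6.37 CPM, and in the other SK-124-treated mice at 9.57 to 11.1 CPM, while vehicle-treated mice spanned 6.29 to 10.4 CPM. Mice 1 to 3 are those in which the 10 top genes took a larger share of the counts, and mouse 3 was at 9.92 CPM for *C1qa*. The part of that share in these values was not tested. The 8 further genes of the classical complement pathway gave no call in 6 tested.

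Further monocyte and macrophage genes were also split: of 19 listed, 10 were tested, 3 were higher and 2 lower. Among all genes tested, 10.8% were higher and 13.5% lower. *Fcgr3*, a receptor for antibody complexes, was at 1.53, 2.00 and 2.84 CPM with vehicle and at 4.11, 5.0 and 6.98 CPM with SK-124 (1.3, SE 0.15, FDR = 6.52e-06). It was higher in every SK-124-treated mouse.

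*Ccr2*, the chemokine receptor by which monocytes leave the bone marrow, was at 1.97, 2.19 and 2.89 CPM with vehicle and at 0.760, 1.08 and 1.51 CPM with SK-124, lower in every treated mouse (-1.02, SE 0.18, FDR = 0.000423). *Mpeg1*, a pore-forming protein of macrophages, was at 5.85, 8.10 and 10.4 CPM against 4.59, 5.40 and 7.04 CPM, with overlap (-0.53, SE 0.13, FDR = 0.00627). *Ms4a6c* was also higher (0.59, FDR = 0.0321) and was named after its value was seen. In the fit without a filter *Ms4a6c* was not called (FDR = 0.0544). There 2 of the 19 genes were higher and 4 lower, beside 5.81% of all genes higher and 7.4% lower. The lower genes of that fit included *Ms4a7* (84 counts with vehicle, 28 with SK-124, FDR = 0.0121). They also included *Lst1* (69 and 28 counts, no overlap, FDR = 0.0126). Both were named after their values were seen.

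Among ligands of the marker receptors, *Csf1*, the ligand of CSF1R, was higher (0.53, FDR = 0.0203) and *Flt3l*, the ligand of the dendritic cell receptor FLT3, was lower (-0.68, FDR = 0.0235). The other 4 ligands tested were not called, among them *Cx3cl1*, which encodes fractalkine, the ligand of CX3CR1 (0.05, FDR = 0.681). For scale, 10.8% of all genes tested were higher and 13.5% lower.

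Dendritic cells present antigen and depend on FLT3. Their markers were low: *Itgax*, the CD11c integrin chain, was at 0.970, 1.28 and 1.61 CPM with vehicle and at 0.526, 0.797 and 1.27 CPM with SK-124, with overlap and without a call (-0.57, SE 0.21, FDR = 0.0619). *Flt3* had 39 counts with vehicle and 44 with SK-124, *Xcr1*, a chemokine receptor of cross-presenting dendritic cells, had 49 and 28, and *Ccr7*, which guides dendritic cells to lymph nodes, had 24 and 24. None of these 3 was called without a filter. Of 9 further dendritic cell genes 5 were tested, with 2 lower and 1 higher, beside 13.5% of all genes lower and 10.8% higher. *Irf8*, a transcription factor of dendritic cells and monocytes, was at 7.86 to 11.9 CPM against 5.66 to 7.72 CPM (-0.68, SE 0.12, FDR = 0.000298), and *Zbtb46*, a transcription factor of conventional dendritic cells, was at 3.31 to 5.17 CPM against 1.96 to 3.24 CPM (-0.73, SE 0.14, FDR = 0.00113). Neither overlapped, and which kidney cells carried the RNA of these 2 genes was not tested. *Cd209a*, a lectin of monocyte-derived dendritic cells, was higher with overlap (0.67, FDR = 0.0405), and *Clec9a*, a receptor for dead cells, was lower without a filter (62 counts against 19.9; -1.48, FDR = 0.0159).

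The MHC class II genes were the most abundant markers. Per length, *Cd74*, the invariant chain that guards the class II groove, was at 102 ± 17.4 CPM per kilobase (SD, n = 6) with vehicle, followed by *H2-Ab1* at 93.6 ± 17.7, *H2-Aa* at 37.5 ± 6.71 and *H2-Eb1* at 24.1 ± 4.03. *Cd74* and *H2-Ab1* did not differ beyond their spread. The next markers were *C1qb* at 14.6 ± 2.74, *Csf1r* at 12.8 ± 0.974, *C1qa* at 10.1 ± 1.89 and *C1qc* at 10.03 ± 0.957 CPM per kilobase, neighbours that lie within each other's spread.

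No class II gene was called. *Cd74* was at 82.8, 105 and 131 CPM with vehicle and at 82.1, 95.2 and 115 CPM with SK-124 (-0.15, SE 0.10, FDR = 0.354), and the groups overlapped almost over their whole ranges. *H2-Aa*, *H2-Ab1* and *H2-Eb1* had log2 fold changes of -0.07, -0.12 and -0.07 (SE 0.12, 0.12 and 0.11; FDR = 0.72, 0.533 and 0.704). Each gene had at least 2205 counts in each group, and each estimate lay within 2 SE of 0.

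The gene of the class II coactivator was lower, although the class II genes were not called. *Ciita* encodes the factor that switches on class II genes by docking on proteins bound to a set of short boxes before their start. It was at 3.07, 3.73 and 4.64 CPM with vehicle and at 1.65, 1.88 and 2.13 CPM with SK-124, lower in every treated mouse (-0.97, SE 0.13, FDR = 2.9e-05). Of 11 genes of the class II machinery 10 were tested, 2 were lower and none higher, where 13.5% of all genes tested were lower. The other lower gene was *H2-DMa*, a chain of the peptide editor (-0.33, SE 0.12, FDR = 0.0449).

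The bases before the start of 2 class II genes are shown because they hold one of these boxes, the Y box. The 150 bases upstream of the RefSeq start (GRCm38.p6) are given 5′ to 3′ on the strand of the gene, at chr17:34287824-34287973 (minus strand) for *H2-Aa* and chr17:34305717-34305866 (plus strand) for *H2-Eb1*, with CTGATTGG in capitals.
H2-Aa: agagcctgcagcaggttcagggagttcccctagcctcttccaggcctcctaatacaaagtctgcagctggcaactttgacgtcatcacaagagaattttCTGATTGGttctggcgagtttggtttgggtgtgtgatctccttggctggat
H2-Eb1: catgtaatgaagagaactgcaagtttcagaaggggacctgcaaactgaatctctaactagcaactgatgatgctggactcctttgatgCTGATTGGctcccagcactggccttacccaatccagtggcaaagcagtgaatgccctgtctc
The match lies 51 to 44 bases before the start of *H2-Aa* and 62 to 55 bases before that of *H2-Eb1*. Of 32851 windows of the same length in the RefSeq table, 3.16% hold these letters on either strand, so the match is a description and says nothing of binding in these kidneys. The 3 class II chain genes lie together on chromosome 17, with 13324 bases between *H2-Ab1* and *H2-Aa* and 18043 between *H2-Aa* and *H2-Eb1*. Of the 39 markers 25 have an entry in that table.

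Neutrophil genes showed the largest increases of the list. S100A8 and S100A9 form calprotectin, the most abundant protein of the neutrophil cytosol. *S100a8* (chromosome 3, 90668978 to 90670035, plus strand) was at 0, 0.0978 and 0.569 CPM with vehicle and at 0.701, 1.42 and 2.43 CPM with SK-124. *S100a9* (chromosome 3, 90692632 to 90695721, minus strand), which lies 22596 bases away, was at 0.0496, 0.0968 and 0.474 CPM with vehicle and at 0.802, 1.41 and 2.23 CPM with SK-124.

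For both genes every SK-124-treated mouse was above every vehicle-treated mouse, SK-124-treated mouse 4 was the highest of all and vehicle-treated mouse 5 the highest of its group. The log2 fold change was 3.10 for *S100a8* (SE 0.47, FDR = 0.000108 in edgeR's test) and 3.16 for *S100a9* (SE 0.41, FDR = 1.87e-05), each with an exact permutation p of 0.00216. The vehicle level rested on 20 and 19 counts in 6 mice, against 163 and 161 with SK-124. Without vehicle-treated mouse 5 the fold changes were 4.09 (FDR = 7.28e-06) and 3.92 (FDR = 1.81e-06).

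*Csf3r*, the receptor for the growth factor G-CSF on neutrophils and their precursors, was at 0.444, 0.802 and 0.996 CPM with vehicle and at 0.753, 1.13 and 1.63 CPM with SK-124. The groups overlapped and it was not called (0.57, SE 0.23, FDR = 0.0802).

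Of 11 further neutrophil genes none passed the filter. In the fit without a filter, 4 of 10 were higher and none lower, where 5.81% of all genes were higher. *Mmp8*, the neutrophil collagenase, had 5 counts in vehicle-treated and 107 in SK-124-treated mice (4.34, SE 0.51, FDR = 3.79e-07), and *Retnlg*, a secreted protein of mature neutrophils, had 7 and 87 (3.61, SE 0.52, FDR = 9.35e-06). Neither overlapped. *Cxcr2*, the chemokine receptor of neutrophils, had 12 and 51 counts (2.14, FDR = 0.00477), and *Ngp*, a granule protein of neutrophil precursors, had 1 and 18 counts (FDR = 0.00631), too few with vehicle for a fold. *Ly6g*, the surface antigen by which mouse neutrophils are usually recognised, had 0 and 4 counts, and the precursor genes *Elane*, *Camp* and *Mpo* had at most 1 count each in the 12 mice. *Cd177*, a neutrophil surface protein, had 1 and 9 counts (FDR = 0.0667). *Mmp9* and *Ltf*, also carried in neutrophil granules, had 50 and 23 counts with vehicle and 29 and 11 with SK-124. None of these was called.

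Mast cell, basophil and eosinophil genes, 7 listed, were near 0 in both groups: their sum was 0.0949 to 0.569 CPM with vehicle and 0.0579 to 0.347 CPM with SK-124, and none was called. None of the 7 passed the filter, and 6 of them had counts for the fit without a filter.

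**Figure D3:**
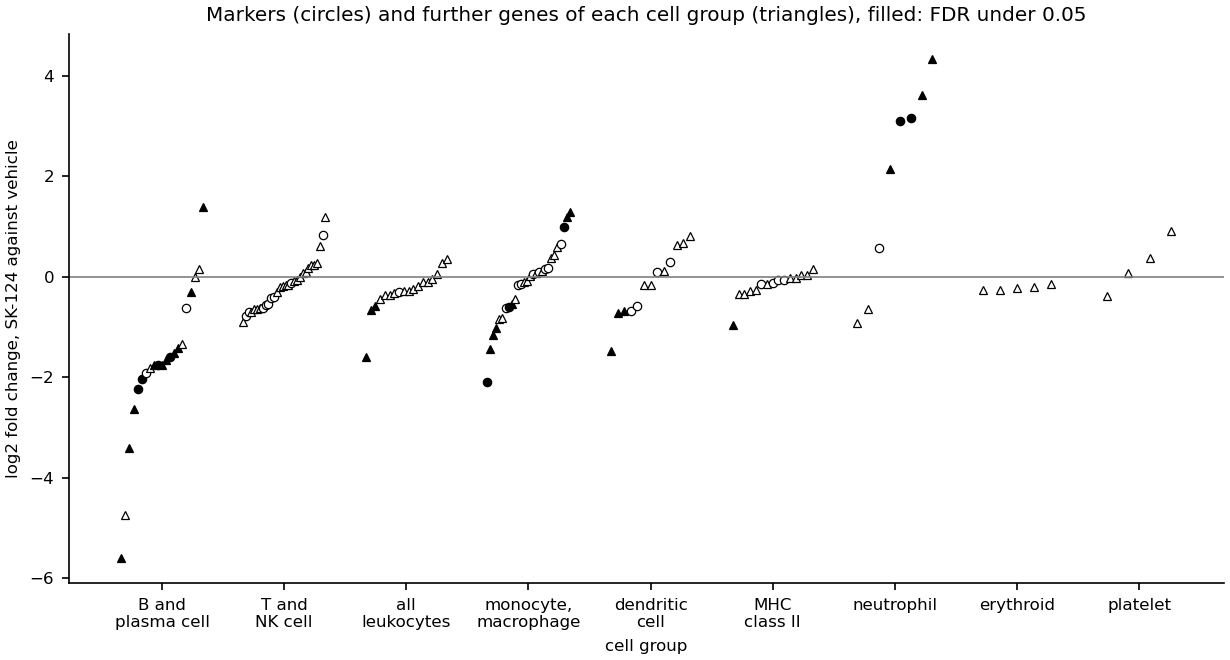
log2 fold change of SK-124 against vehicle (y axis) in the fit without a filter on low counts, for markers (circles) and further listed genes (triangles) of each cell group with at least 20 counts in the 12 mice; filled symbols have an FDR under 0.05. Most B cell genes lie below 0, with *Mzb1* as the filled symbol at 1.39, and neutrophil genes reach up to 4.34, while no erythroid or platelet gene is filled; values of genes with almost no counts in 1 group, such as *Ighg2c* at the bottom, depend on the fit's prior.

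Summed per length, MHC class II genes stood first and monocyte and macrophage markers second in both groups of mice, while B cell markers came next with vehicle and neutrophil markers with SK-124. The 6 B cell and plasma cell markers together were at 12.2 ± 8.69 CPM per kilobase (SD, n = 6) with vehicle and at 2.89 ± 0.684 with SK-124, 23.6% of the vehicle level. The groups did not overlap (7.78 to 29.8 against 2.11 to 3.73), and *Igkc* made up 55.2% of the sum. Vehicle-treated mouse 4 held the 29.8 and the other vehicle-treated mice lay at 7.78 to 10.8. That mouse raised the vehicle mean, so the 23.6% overstates the difference from the others. The 3 neutrophil markers together were at 1.42 ± 1.3 with vehicle and 10.3 ± 3.65 with SK-124, also without overlap (0.525 to 4.01 against 5.61 to 16.6), and vehicle-treated mouse 5 held the 4.01. With SK-124 this sum was nearly all *S100a8* (mean 5.13) and *S100a9* (4.67), with *Csf3r* at 0.524, so it restates those 2 genes.

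The other sums overlapped between the groups. T and NK cell markers were at 3.85 ± 0.849 against 2.82 ± 0.572 CPM per kilobase, monocyte and macrophage markers at 63.5 ± 6.82 against 66.2 ± 9.21, dendritic cell markers at 0.650 ± 0.0985 against 0.521 ± 0.171, *Ptprc* at 0.957 ± 0.133 against 0.783 ± 0.125, and MHC class II genes at 258 ± 45.1 against 238 ± 32.8. These sums are descriptions over markers chosen with results known and have no test.

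**Figure D4:**
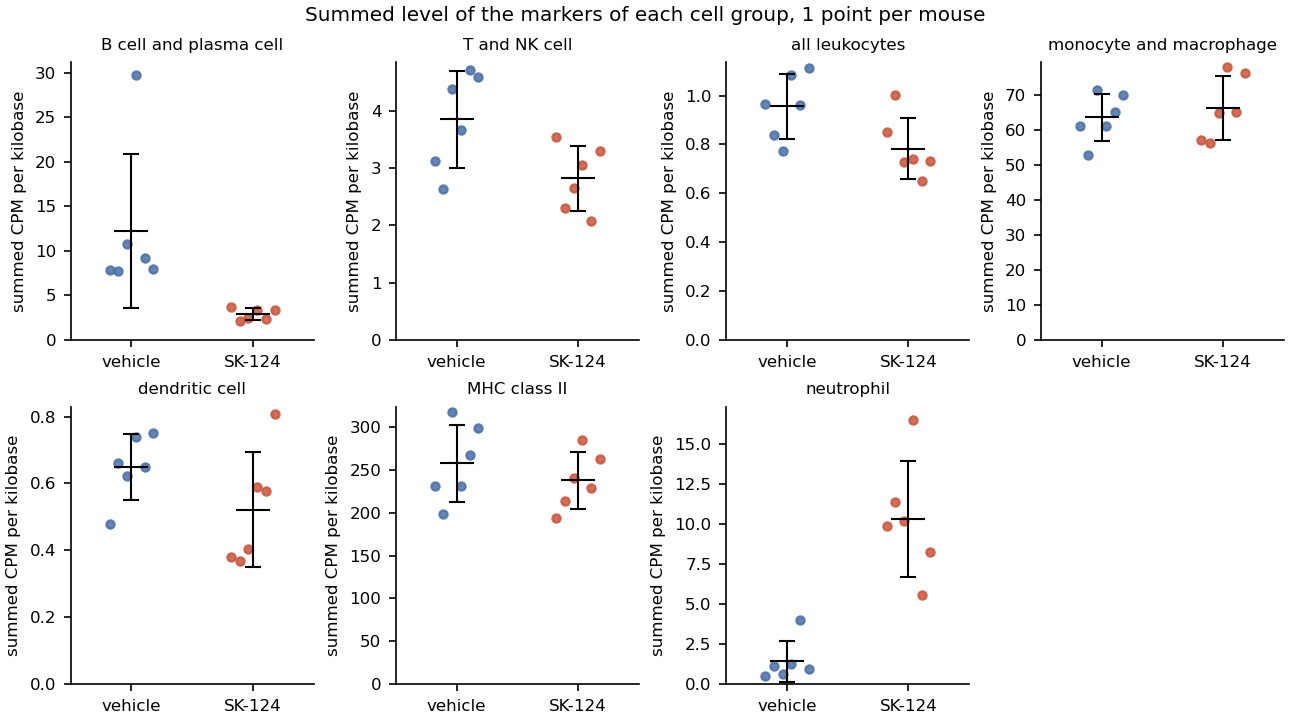
Summed level of the markers of each cell group (y axis, CPM per kilobase of effective length, from 0) in 6 vehicle-treated (blue) and 6 SK-124-treated (red) mice, 1 point per mouse, with the mean and SD in black. B cell and neutrophil sums are apart between the groups, and the other 5 sums overlap.

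Blood left in the kidney brings leukocytes of its own, so genes of red cells and platelets are given beside these results. The 6 erythroid genes found, mostly globins, summed to 457 to 1257 CPM with vehicle and to 547 to 785 CPM with SK-124, and none of the 5 tested was called. The 5 platelet genes summed to 2.78 to 4.19 CPM against 3.51 to 4.36 CPM, and the 1 tested was not called. Genes of fat cells, whose tissue surrounds the kidney and can hold lymphoid cells, summed to 0.0511 to 7.01 CPM with vehicle and to 0.117 to 3.87 CPM with SK-124, without a call. The part of residual blood or of adjoining tissue in the B cell and neutrophil values was not tested beyond these levels.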

How the data were processed

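Whole-kidney RNA of 12 mice was measured, 1 library per mouse on a BGISEQ instrument. The authors deposited RSEM gene tables with expected counts (estimated reads per gene, not normalized) and TPM. The submitters' processing notes name STAR 2.7.2b, RSEM 1.3.0, mm10, FastQC and DESeq2, without roles; the annotation and the use of strand are not given in the sources used here, so reads of overlapping genes on opposite strands may not be told apart. RSEM's posterior SD of the count was 0 in all mice for 22 of the 25 tested markers, all but *Itgam*, *Itgax* and *Lyz2*.

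Expected counts were rounded, scaled with TMM and tested with edgeR 4.0.16 (R 4.3.3; quasi-likelihood test, filterByExpr with a minimum count of 10, Benjamini-Hochberg over 14159 genes), without a replicate block, with a threshold of 0.05 on the FDR. SE was taken as the size of the log2 fold change over the root of the F statistic. Permutation tests were exact, two-sided and on log2(CPM + 0.5). Symbols and coordinates came from GENCODE M21 (GRCm38); 38 of the 39 markers matched with their identifier's version, and *Xcr1*, which did not, has no coordinates here. Upstream sequences came from RefSeq tables. The fits were tested on simulated counts.

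The markers, the further gene lists and the tests were chosen with earlier results of these data known. All 39 markers are accounted for, with per-mouse values for those called and those that define a cell group. Of each further list up to 4 called genes were named, smallest p first. Any other gene was named with its value known. Not all of these are marked so where they appear, among them the uncalled neutrophil genes and *Cx3cl1*. Some genes of the further lists are not reported here. Per-mouse values are the lowest, median and highest of a group. Groups came from the labels, and the mice of a group are separate animals. In 30 pairs of mice of a group the counts differed with a chi-square per degree of freedom of at least 4.69, so no library looked like a copy of another. Depth was alike in all mice and limits the low-count markers. Alternatives were DESeq2 1.42.0, limma 3.58.1 on log2(TPM + 1) and log2(TPM + 0.1), other scalings and filters, unrounded counts, robust dispersion, the replicate number as a block, each mouse left out, and SK-124-treated mice 1 to 3 or 4 to 6 alone.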

Additional observations from a re-analysis of the deposited data

Results flagged for a closer look

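Among 62 values tested for a single mouse far from the other 5 of its group, 5 were found, where chance gives about 3.1 (1 in 20). In vehicle-treated mouse 4, *Igkc* was at 7.61 CPM, with the other 5 mice at 0.900 to 1.58 CPM, and the summed level of B cell and plasma cell markers was 29.8 CPM per kilobase, with the others at 7.78 to 10.8. In vehicle-treated mouse 5, *S100a8* was at 0.569 CPM (others 0 to 0.149), *S100a9* at 0.474 CPM (others 0.0496 to 0.151) and the summed level of neutrophil markers at 4.01 CPM per kilobase (others 0.525 to 1.29). The sums contain the single genes and so are not separate findings.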

How the results depend on the processing

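*Ighm*, *Cd79a*, *Cx3cr1*, *Cd14*, *S100a8* and *S100a9* were called in the same direction in every alternative that tested them (23 or 24 each). *Cd68* was called in 23 of 24, *Igkc* in 20 of 22 (DESeq2 gave it no adjusted p) and *Itgam* in 15 of 24, where it missed the threshold with library totals only, no filter (FDR = 0.0504), both limma fits, SK-124-treated mice 1 to 3 or 4 to 6 only, and without vehicle-treated mouse 2, 4 or 6. Markers not called gained a call in some: *Itgax* in 7 of 23, *Csf1r* in 6 of 24 (DESeq2, RLE scaling, the replicate block and 3 fits without 1 mouse), *Ptprc* and *Adgre1* in 3 of 24 each, *Trac* (both limma fits) and *C1qc* in 2 of 24 each and *Csf3r* in 2 of 23. Leaving out each mouse in turn gave 2960 to 3942 genes called, 3 to 5 markers higher and 5 to 7 lower. Library totals only moved the median of all genes to -0.12 and called 777 genes higher and 3058 lower (20.3% of calls higher, against 44.5%), with 8 markers lower. limma called 500 genes higher on log2(TPM + 1) and 498 on log2(TPM + 0.1). At least 10 counts in every mouse dropped low genes and left 17 markers, with 4 called, 2 higher and 2 lower. Of all genes, 3254 of 13042 were called there, so the markers were not called more often than genes at large. With SK-124-treated mice 1 to 3 only, 2298 genes were called, 1233 of them lower; with mice 4 to 6 only, 1267 were lower and 3 markers were lower, with fewer mice tested. The deposited TPM put the log2 ratio of *Ptprc* at -0.71 instead of -0.29; the cause was not tested. The sign turned only for markers that were not called: *C1qa* was -0.0154 with library totals only, -0.0715 and -0.0832 with limma and -0.166 with mice 1 to 3; *C1qb* was -0.069 with mice 1 to 3; *C1qc* was 0.016, *H2-Aa* 0.0829 and *H2-Eb1* 0.0473 with mice 4 to 6; and *Lyz2* was -0.0505 with library totals only, -0.0899 and -0.105 with limma, -0.0618 with mice 1 to 3 and -0.0412 to 0.115 with 1 mouse left out.

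The replicate numbers belong to different mice and do not pair them: same-numbered mice correlated at -0.13 to 0.22 and 2 of 6 correlated best with their own number. With the replicate block 3466 genes were called, and 12 markers, 6 higher and 6 lower.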
